A study of Mus musculus with 12 samples.

Results

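The inflammatory caspases are a small group of cysteine proteases that cut cytokine precursors and pore-forming proteins. The mouse genes Casp1, Casp4 and Casp12 were taken, with every probe set annotated to exactly 1 of them, which gave 3 of the 18193 genes named by such probe sets, and 4 of the 45101 probe sets on the array. Casp12 was read by 2 probe sets, 1418981_at and 1449297_at, Casp4 by 1449591_at and Casp1 by 1449265_at. RNA of mouse embryonic fibroblasts (MEFs) was measured on 12 Affymetrix arrays, 2 for each of 6 groups. In 3 groups the cells were given AMN107, and then IFNg for 6 h (AMN107-IFNg), IFNa for 6 h (AMN107-IFNa) or no interferon (AMN107). The other groups were IFNg for 6 h, IFNa for 6 h and DMSO, all without AMN107. AMN107 (nilotinib) blocks the ABL kinases, IFNg and IFNa are type II and type I interferons, and DMSO is a solvent. The series set out to ask how an ABL inhibitor changes the interferon response. Neither dose nor length of the AMN107 treatment, nor an interferon dose, a strain or a genotype, is stated in the labels. The 2 arrays of a group are called biological replicates, without a statement that they came from separate cultures, so the p-values measure the spread between these arrays.

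Caspase-1 is activated in inflammasomes, protein platforms assembled by sensors such as Nlrp3 and Aim2 with the adaptor Pycard, and it cuts the precursors of Il1b and Il18. Mouse Casp4 encodes caspase-11, which binds bacterial lipopolysaccharide in the cytosol and cuts Gsdmd, whose released fragment opens pores in the plasma membrane in the death process called pyroptosis. Casp12 encodes caspase-12, a member of the same group that has been linked in the mouse to endoplasmic reticulum (ER) stress and to restraint of inflammasome signalling. Interferons act through STAT proteins and interferon regulatory factors (IRFs), and the mouse Casp4 gene is known to be inducible by interferon and by lipopolysaccharide. The 3 genes lie next to each other on mouse chromosome 9, in the order Casp1, Casp4 and Casp12, with no annotated gene between them in RefSeq (GRCm38.p6).

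The promoter windows are shown so that the sequences next to the starts of these neighbouring genes can be compared. The RefSeq windows hold 300 bases of the plus strand of GRCm38.p6, from 250 bases before to 50 bases after the annotated start. The Casp12 window is chr9:5345226-5345525, the Casp4 window chr9:5308599-5308898 and the Casp1 window chr9:5298267-5298566. A second Casp4 start, with the window chr9:5308610-5308909, held the same matches. Capitals mark TTCNNNGAA, the STAT dimer motif, in the Casp12 window and a kappaB motif in either orientation in the Casp4 window.
Casp12: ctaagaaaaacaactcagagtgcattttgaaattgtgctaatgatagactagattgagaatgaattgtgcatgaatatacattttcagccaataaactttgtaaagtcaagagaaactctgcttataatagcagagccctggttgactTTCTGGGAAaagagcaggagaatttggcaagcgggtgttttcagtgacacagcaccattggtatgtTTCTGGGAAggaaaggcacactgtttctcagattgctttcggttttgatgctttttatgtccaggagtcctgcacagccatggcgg
Casp4: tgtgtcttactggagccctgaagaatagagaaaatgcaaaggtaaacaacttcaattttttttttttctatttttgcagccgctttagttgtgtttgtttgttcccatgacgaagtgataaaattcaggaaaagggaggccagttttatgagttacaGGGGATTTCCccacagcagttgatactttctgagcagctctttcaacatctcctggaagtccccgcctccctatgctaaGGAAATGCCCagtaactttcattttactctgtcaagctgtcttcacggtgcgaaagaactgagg
Casp1: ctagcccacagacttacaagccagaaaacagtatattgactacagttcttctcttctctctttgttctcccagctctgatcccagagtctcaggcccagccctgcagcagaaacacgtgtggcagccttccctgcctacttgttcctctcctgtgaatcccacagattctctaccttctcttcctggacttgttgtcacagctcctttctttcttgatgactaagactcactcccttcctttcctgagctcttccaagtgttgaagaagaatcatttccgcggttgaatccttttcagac
The Casp12 window held 2 matches to TTCNNNGAA, whose first bases lay 102 and 36 bases before the start. The motif is its own reverse complement. Of all 32851 promoter windows, 8.30% held at least 1 match and 0.457% at least 2. The Casp4 and Casp1 windows held none. The core of the IRF motif, searched on both strands, was in none of the windows of the 3 genes and in 3.44% of all windows. The Casp4 window held 2 kappaB matches, 93 and 14 bases before the start, and the Casp12 and Casp1 windows none. At least 1 kappaB match was in 1.63% of all windows and at least 2 in 0.0304%. The kappaB motif was added after the Casp4 window had been read, and none of the matches overlapped another motif. A match describes letters in the window and is not a measured binding site.

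The 12 arrays had medians of 20.6 to 22.7 signal units. IFNa replicate 2 stood apart, with a ratio of 5' to 3' GAPDH probe sets of 0.0252, against 1.07 to 1.16 on the other 11 arrays, and with an SD of the log2 differences between replicates of 0.435 in its group, against 0.131 to 0.157 in the other groups. All 6 groups share 1 estimate of the spread per probe set, so results are also given without IFNa arrays where this changed a call. The cells were checked against marker lists. Of 10 fibroblast markers, 6 were above the median on every array, while Thy1, Lum and Postn were below it on all 12. The summed signal of the 10 was 5230 to 5367 in AMN107-IFNg, 4997 to 5240 in AMN107-IFNa, 4934 to 5063 in AMN107, 5702 to 6130 in IFNg, 4861 to 6942 in IFNa and 4331 to 4481 in DMSO. Vim alone read 2786 to 4816 over the 12 arrays, so this sum mostly follows 1 gene. Col1a1, by contrast, read 31.8 to 53.8 and Col3a1 106.9 to 948.1. Of 10 macrophage and leukocyte markers, 3 were above the median on every array, Csf1r (41.0 to 60.5), Spi1 (24.5 to 31.4) and Cd14 (114.2 to 172.3), and 4 were below it on all arrays, Ptprc, Itgam, Adgre1 and Tyrobp. The summed signal of this list was 302 to 311 in AMN107-IFNg, 350 to 380 in AMN107-IFNa, 361 to 373 in AMN107, 338 to 357 in IFNg, 335 on both arrays of IFNa and 347 to 356 in DMSO. Of its 5 tested members, 1 was higher and 1 lower in AMN107-IFNg than in IFNg, where 10.9% of all tested probe sets were called higher and 4.41% lower. Fcgr3 averaged 37.1 in AMN107-IFNg and 20.7 in IFNg, and Cd14 119.4 in AMN107-IFNg and 162.0 in IFNg (limma adjusted p = 0.00687 and 0.0275). The part of these markers in the caspase results was not tested. No array held a marker at exactly 0. Fewer cells of a type and less RNA per cell cannot be told apart in these bulk samples.

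Casp12 signals were high on all 4 arrays with IFNg and low on the other 8. The probe set 1418981_at read 137.5 and 130.0 in AMN107-IFNg cells, 28.2 and 25.7 in AMN107-IFNa cells and 17.8 and 19.8 in AMN107 cells. Without AMN107 it read 133.1 and 122.4 in IFNg cells, 19.5 and 28.2 in IFNa cells and 10.7 and 17.5 in DMSO cells. The IFNg arrays with and without AMN107 overlapped, and none of them overlapped any other group. The second Casp12 probe set, 1449297_at, read 73.6 and 72.4 in AMN107-IFNg, 21.5 and 23.6 in AMN107-IFNa and 14.7 and 13.0 in AMN107. It read 82.1 and 84.8 in IFNg, 16.7 and 24.9 in IFNa and 17.3 and 11.7 in DMSO. On this probe set both IFNg arrays without AMN107 were above both with it, and the gap between them was small beside the distance to the other groups. The 2 probe sets thus put the same groups at the top.

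Casp4, the gene of the cytosolic lipopolysaccharide receptor, was also high on the IFNg arrays, with a gap between the arrays with and without AMN107. It read 140.9 and 138.0 in AMN107-IFNg cells, 23.7 and 32.1 in AMN107-IFNa cells and 16.9 and 17.5 in AMN107 cells. It read 65.2 and 81.5 in IFNg cells, 19.1 and 20.4 in IFNa cells and 21.2 and 19.7 in DMSO cells. The order of the groups was AMN107-IFNg, IFNg, AMN107-IFNa, DMSO, IFNa and AMN107, and of these neighbours only DMSO and IFNa overlapped on single arrays. Among the 4 groups at the low end all signals lay between 16.9 and 32.1, and none of the 4 tests run among those groups passed for Casp4.

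Casp1, the gene of the central inflammasome protease, was dim on every array. It ranged from 5.25 to 7.98 signal units over the 12 arrays, under the 25th percentile of every array. It read 7.4 and 6.4 in AMN107-IFNg, 5.4 and 6.2 in AMN107-IFNa and 6.7 and 6.2 in AMN107. It read 8.0 and 7.8 in IFNg, 7.1 and 5.6 in IFNa and 6.8 and 5.2 in DMSO. Both IFNg arrays lay above all other arrays, within the narrow range of 5.25 to 7.98. No detection calls were used here, so the low signal says that the probe set was dim and not that the transcript was absent.

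**Figure D1:**
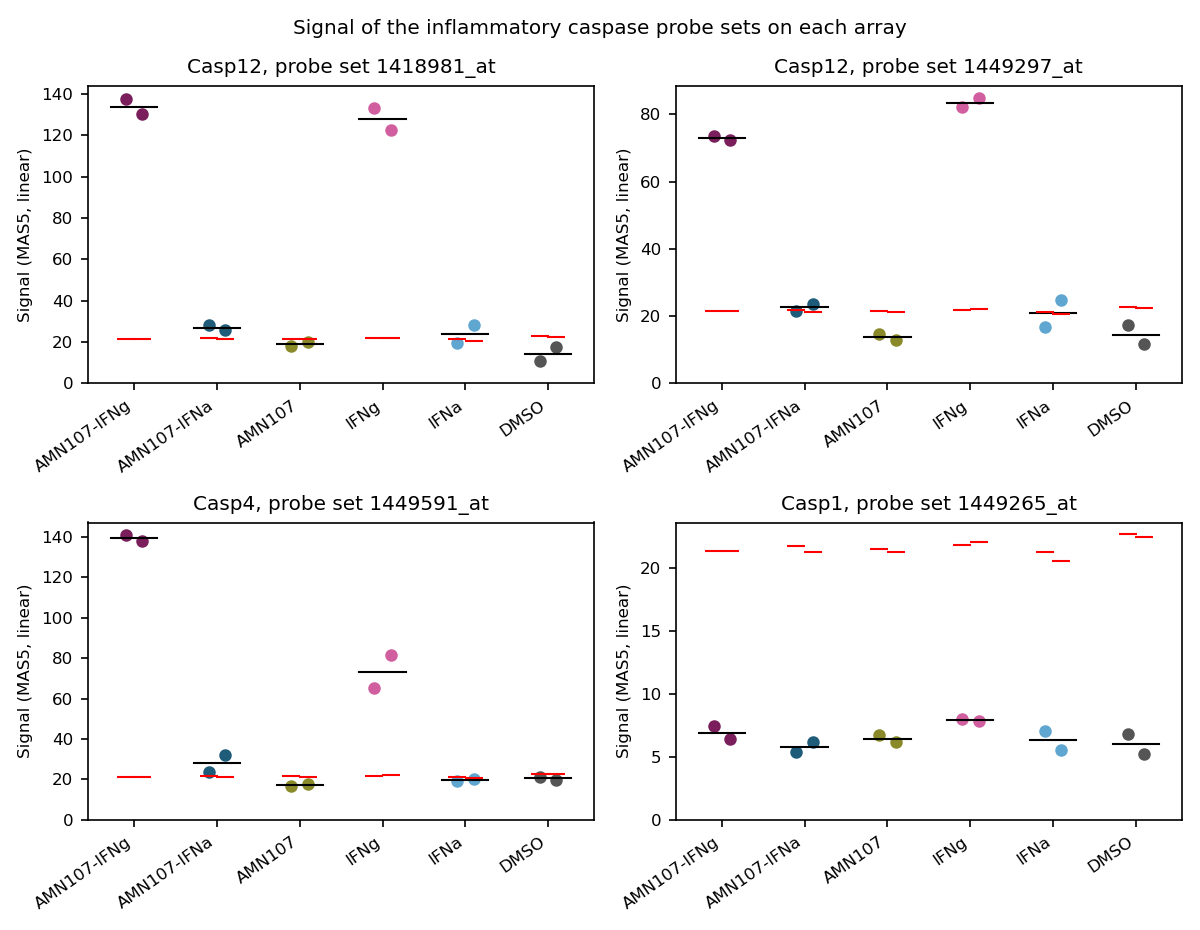
Signal of the 4 probe sets (linear MAS5 signal units) on each of the 12 arrays by treatment group, with points for arrays, black lines for the mean of 2 and short red lines for each array's median over all probe sets. Both Casp12 probe sets and Casp4 are high in AMN107-IFNg and IFNg cells, and Casp4 is higher in AMN107-IFNg (138.0 and 140.9) than in IFNg (65.2 and 81.5), while Casp1 stays at or below 8.0 throughout.

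Only probe sets with 2 or more arrays over the array's own median were tested, which held for 3 of the 4 probe sets and for 24363 of all. Casp12 1418981_at was above it on 7 arrays, 3 of them without IFNg, and Casp12 1449297_at and Casp4 on 6 arrays, 2 of them without IFNg. Casp1 was above it on 0 of 12 and was not tested. Differences are on the scale of log2(signal + 8.66), which understates the change of dim probe sets, and were tested with limma, with Benjamini-Hochberg adjustment over all 24363 probe sets and a threshold of 0.05.

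Given without AMN107, IFNg raised the 3 tested probe sets of Casp12 and Casp4, 3 of 3, where 6.65% of all tested probe sets were called higher and 2.33% lower (6.73% and 5.84% after quantile normalization). Casp12 1418981_at averaged 127.8 ± 7.60 in IFNg cells and 14.1 ± 4.83 in DMSO cells (SD, n = 2 each), a log2 difference of 2.60 (SE 0.15, 95% interval 2.26 to 2.94, limma adjusted p = 4.61e-06). Casp12 1449297_at averaged 83.4 ± 1.92 in IFNg and 14.5 ± 3.93 in DMSO, a log2 difference of 2.002 (SE 0.14, limma adjusted p = 1.7e-05). Both probe sets of the gene therefore rose, the brighter one by more. Casp4 averaged 73.3 ± 11.6 in IFNg and 20.5 ± 1.04 in DMSO, a log2 difference of 1.49 (SE 0.12, 95% interval 1.21 to 1.76, limma adjusted p = 5.73e-05). The ratio of mean signals was 9.07 for Casp12 1418981_at, 5.75 for 1449297_at and 3.58 for Casp4. Casp1 averaged 7.90 ± 0.115 in IFNg and 6.04 ± 1.12 in DMSO. With no filter, limma over 45037 probe sets gave Casp1 a log2 difference of 0.17 (SE 0.07, adjusted p = 0.191).

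In cells given AMN107, IFNg again raised 3 of the 3 tested probe sets, where 1.74% of all tested probe sets were called higher and 0.0452% lower. Casp4 had the largest difference of the 3: 139.5 ± 2.07 in AMN107-IFNg cells and 17.2 ± 0.420 in AMN107 cells, a log2 difference of 2.52 (SE 0.12, 95% interval 2.24 to 2.79, limma adjusted p = 1.69e-06). Casp12 1418981_at averaged 133.8 ± 5.25 in AMN107-IFNg and 18.8 ± 1.38 in AMN107, a log2 difference of 2.37 (SE 0.15, limma adjusted p = 1.48e-05). Casp12 1449297_at averaged 73.0 ± 0.857 in AMN107-IFNg and 13.8 ± 1.18 in AMN107, a log2 difference of 1.86 (SE 0.14, limma adjusted p = 4.7e-05). The ratio of mean signals was 8.11 for Casp4, 7.11 for Casp12 1418981_at and 5.28 for 1449297_at. All 4 arrays with IFNg were thus above all other arrays for both genes.

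Within IFNg-treated cells, AMN107 raised Casp4 and neither Casp12 probe set passed. Casp4 was higher in AMN107-IFNg than in IFNg cells by 0.86 on the log2 scale (SE 0.12, 95% interval 0.59 to 1.13, limma adjusted p = 0.00161), with a ratio of mean signals of 1.90. It was the only one of the 3 tested probe sets to pass, where 10.9% of all were called higher and 4.41% lower (8.66% and 6.09% after quantile normalization). Casp12 1418981_at differed by 0.06 (95% interval -0.28 to 0.41, limma adjusted p = 0.826) and Casp12 1449297_at by -0.17 (-0.49 to 0.14, adjusted p = 0.455). These intervals leave room for changes of either sign in Casp12, but lie below the Casp4 interval. The difference between the genes was not tested directly. On the control probe sets, the ratio of 5' to 3' GAPDH was 1.14 and 1.16 on the AMN107-IFNg arrays and 1.09 and 1.098 on the IFNg arrays, and the spiked BioB control read 178.9 and 171.7 on the AMN107-IFNg arrays, against 140.5 and 134.1 on the IFNg arrays. Epithelial markers, 1 of 5 above the median on every array, summed to 104.4 to 120.0 in AMN107-IFNg and 155.1 to 158.0 in IFNg, and endothelial ones to 82.1 to 84.2 in AMN107-IFNg and 91.0 to 91.5 in IFNg. The part of these gaps in the Casp4 difference was not tested.

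Without interferon, AMN107 changed none of the 3 tested probe sets by limma, at an unadjusted p under 0.05 as well, where 20.7% of all tested probe sets were called higher and 12.4% lower (15.8% and 18.6% after quantile normalization, 24% and 8.55% after median centring). Casp4 differed by -0.17 between AMN107 and DMSO (95% interval -0.44 to 0.10, limma adjusted p = 0.304), with both AMN107 arrays below both DMSO arrays. Casp12 1418981_at differed by 0.29 (-0.06 to 0.63, adjusted p = 0.173) and 1449297_at by -0.03 (-0.35 to 0.28, adjusted p = 0.877). With array weights, Casp12 1418981_at passed (adjusted p = 0.0426).

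The response of Casp4 to IFNg was larger with AMN107 than without it. The interaction, the IFNg response with AMN107 minus that without, was 1.03 for Casp4 (SE 0.17, 95% interval 0.64 to 1.42, limma adjusted p = 0.0207). Of all tested probe sets, 0.111% had a positive interaction past the threshold and 1.26% a negative one, and Casp4 was 1 of the 27 with a positive one. Casp12 1418981_at had an interaction of -0.23 (-0.71 to 0.26, limma adjusted p = 0.73) and 1449297_at of -0.14 (-0.58 to 0.31, adjusted p = 0.84). The Casp4 call rested on most single arrays of its 4 groups. It passed without IFNg replicate 2 (1.18, limma adjusted p = 0.0417). It was lost after quantile normalization (0.87, limma adjusted p = 0.0539), without either DMSO array (adjusted p = 0.128 and 0.0645), without either AMN107 array (0.101 and 0.108), without either AMN107-IFNg array (0.102 and 0.115) and without IFNg replicate 1 (0.101), while the log2 value stayed between 0.87 and 1.18. Without both IFNa arrays the same value had an adjusted p of 0.000701, where 2.63% of all tested probe sets had a positive interaction past the threshold and 10.4% a negative one.

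**Figure D2:**
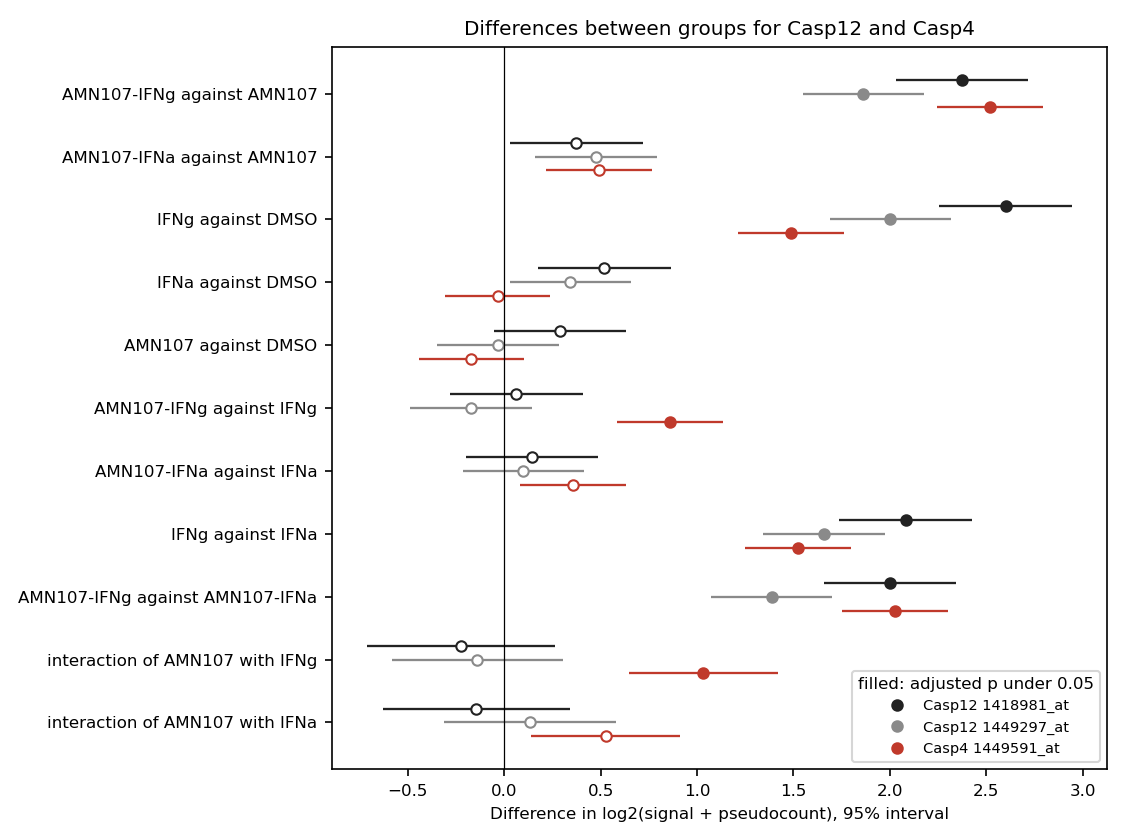
Log2 difference of each tested probe set, on the scale of log2(signal + 8.66), with the 95% interval from limma, for the comparisons and interactions. The 2 Casp12 probe sets and Casp4 lie above 0 for AMN107-IFNg against AMN107 (2.37, 1.86 and 2.52) and for IFNg against DMSO (2.60, 2.002 and 1.49), and Casp4 stands alone above 0 for AMN107-IFNg against IFNg (0.86) and for the interaction with IFNg (1.03).

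IFNa gave at most small differences. Against DMSO, none of the 3 tested probe sets passed limma's adjusted threshold and 2 of 3 had an unadjusted p under 0.05, as had 37.8% of all tested probe sets. Past the adjusted threshold, 8.91% of all were called higher and 3.08% lower (4.06% and 3.43% after quantile normalization, 20.2% and 1.95% after median centring). Casp12 1418981_at averaged 23.8 ± 6.14 in IFNa and 14.1 ± 4.83 in DMSO, a log2 difference of 0.52 (95% interval 0.17 to 0.86, limma adjusted p = 0.0535). Casp12 1449297_at differed by 0.34 (limma adjusted p = 0.109) and Casp4 by -0.04 (95% interval -0.31 to 0.24, adjusted p = 0.845). These values depended on the IFNa array that stood apart. Without IFNa replicate 2, Casp12 1418981_at differed by 0.32 (adjusted p = 0.179) and 1449297_at by 0.14 (adjusted p = 0.514). Without IFNa replicate 1, which leaves only the array that stood apart, both passed, at 0.71 (adjusted p = 0.00107) and 0.55 (adjusted p = 0.00324), where 33.2% of all tested probe sets were called higher and 21% lower. The lone array is then assumed to vary like those of the other groups.

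In cells given AMN107, both IFNa arrays lay above both AMN107 arrays for the 3 tested probe sets, with none past limma's adjusted threshold and 3 of 3 at an unadjusted p under 0.05. Of all tested probe sets, 2.59% had an unadjusted p under 0.05, and past the adjusted threshold 0.119% were called higher and 0% lower. The log2 differences were 0.37 for Casp12 1418981_at (limma adjusted p = 1), 0.48 for 1449297_at (adjusted p = 0.941) and 0.49 for Casp4 (adjusted p = 0.456). With array weights Casp4 (adjusted p = 0.0414) and Casp12 1449297_at (adjusted p = 0.0381) passed. Casp4 averaged 27.9 ± 5.99 in AMN107-IFNa and 19.7 ± 0.922 in IFNa, a log2 difference of 0.36 (95% interval 0.08 to 0.63, limma adjusted p = 0.0609), with 11.2% of all tested probe sets called higher and 12.9% lower. Its interaction of AMN107 with IFNa was 0.53 (0.14 to 0.91, limma adjusted p = 0.191), where 0% of all were called positive and 0.152% negative. It passed with only the IFNa array that stood apart, without IFNa replicate 1 (0.49, adjusted p = 0.043), where 14.4% of all were called positive and 29.4% negative.

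IFNg and IFNa were also set against each other. All 3 tested probe sets were higher in IFNg than in IFNa cells, by 2.08 and 1.66 for the 2 Casp12 probe sets and by 1.52 for Casp4 (limma adjusted p = 6.02e-05, 0.000171 and 0.000112), where 4.48% of all were called higher and 9.65% lower (4.63% and 5.62% after quantile normalization, 3.69% and 14.2% after median centring). They were higher in AMN107-IFNg than in AMN107-IFNa cells by 2.001, 1.39 and 2.03 in the same order (limma adjusted p = 9.06e-05, 0.000725 and 1.3e-05), where 0.928% of all were called higher and 0.0041% lower. The first of these comparisons held without either IFNa array, with log2 differences of 1.46 to 2.28. With only the 4 arrays compared, 1 of the 3 probe sets passed, at adjusted p values of 0.0359, 0.0707 and 0.053.

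Of 9 transcription factors known to act at these genes, 6 were tested and 3 were not analysed here. IFNg raised 4 of the 6 without AMN107, where 6.65% of all tested probe sets were called higher, and 4 of the 6 with it, where 1.74% were. Stat2, Irf1 and Irf8 were in both counts, Irf9 only in that without AMN107 and Irf2 only in that with it. Irf2 was named after its value was seen and passed in 20 of 24 alternatives. None of the 6 fell, with medians of 1.35 without and 1.12 with AMN107, beside -0.02 and -0.03 over all tested probe sets. Irf1, an IRF that is itself induced through STAT proteins, read 1610 and 1478 in IFNg and 184.2 and 218.2 in DMSO, a log2 difference of 2.89 (limma adjusted p = 3.08e-07). With AMN107 it read 1288 and 1255 in AMN107-IFNg and 222.3 and 213.0 in AMN107, a log2 difference of 2.50 (limma adjusted p = 1.56e-06). Irf1 was high on the same 4 arrays as Casp12 and Casp4, those given IFNg. Irf8, an IRF best known from myeloid cells, read 212.3 and 216.4 in IFNg and 19.0 and 19.2 in DMSO, a log2 difference of 3.01 (limma adjusted p = 1.8e-08), and it differed by 2.20 for AMN107-IFNg against AMN107. It was lower in AMN107-IFNg cells, at 105.3 and 106.6, by -0.96 against IFNg (limma adjusted p = 0.000107), the opposite direction to Casp4. Its second probe set gave -0.60 (adjusted p = 0.00547), and its interaction with IFNg was -0.81 (limma adjusted p = 0.0125). Stat2, which carries type I interferon signals, differed by 1.39 for IFNg against DMSO (limma adjusted p = 0.000362) and by 1.33 for AMN107-IFNg against AMN107 (adjusted p = 0.000787). It read 148.2 and 161.4 in AMN107-IFNg against 91.8 and 80.9 in IFNg, a log2 difference of 0.78 (limma adjusted p = 0.00702), in the direction of Casp4. Unlike Casp4, Stat2 was also higher with AMN107 alone, at 47.6 and 66.8 against 23.7 and 31.8 in DMSO. Its second probe set differed by 1.38 for AMN107 against DMSO (limma adjusted p = 6.02e-05). Irf9, the partner of Stat2, was higher in IFNg than in DMSO by 1.32 (limma adjusted p = 0.00126), in IFNa than in DMSO by 1.44 (adjusted p = 0.00216) and in AMN107 than in DMSO by 1.49 (adjusted p = 0.00027).

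Of 14 inflammasome sensors and adaptors, 9 had a probe set and 4 were tested. By limma none of the 4 rose under IFNg, with or without AMN107, at an unadjusted p under 0.05 as well. Of all tested probe sets, 6.65% were called higher under IFNg and 2.33% lower without AMN107, and 1.74% and 0.0452% with it. In either direction, 25% had an unadjusted p under 0.05 without AMN107 and 7.98% with it. Nek7, a kinase that binds Nlrp3, was the 1 of the 4 that fell, by 0.33 for IFNg against DMSO (limma adjusted p = 0.0378, passed in 12 of 24 alternatives), and it was named after its value was seen. The other tested Nek7 probe sets gave -0.20 (adjusted p = 0.273) and 0.14 (adjusted p = 0.806). For AMN107 against DMSO, 3 of the 4 sensors and adaptors were lower, with log2 differences of -0.34 for Nlrp3, -0.36 for Mefv and -0.41 for Nek7 (limma adjusted p = 0.0178, 0.0278 and 0.00565), where 12.4% of all tested probe sets were called lower. The other Nek7 probe sets did not pass there (-0.21 and -0.02, adjusted p = 0.153 and 0.968). The sensors and adaptors Aim2, Nlrp6, Naip2, Naip5 and Pycard were below the array median on all 12 arrays, with Pycard at or below 13.2 on its 3 probe sets. Nlrp3 read 19.2 to 32.9 and Mefv 21.55 to 36.1 over all arrays, both near the array medians. Nlrp3 and Mefv were named for AMN107 against DMSO after their values were seen.

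Of 10 names of substrates and pyroptosis effectors, 9 had a probe set and 6 were tested, and 1 of these, Il18bp, rose under IFNg. Of all tested probe sets, 6.65% were called higher under IFNg without AMN107 and 1.74% with it. Il18bp, the secreted protein that binds Il18, was named after its value was seen. It read 80.5 and 85.8 in IFNg and 53.5 and 45.4 in DMSO, a log2 difference of 0.66 (limma adjusted p = 0.00352). It read 88.8 and 83.8 in AMN107-IFNg and 39.6 and 41.0 in AMN107, a log2 difference of 0.95 (limma adjusted p = 0.000581). The caspase-1 substrates Il1b and Il18 were dim, at 13.0 to 17.2 and 13.8 to 20.6, as was Il1a at 3.26 to 5.10, below the median on all arrays. Gsdmd, the pore-forming substrate of caspase-11, was above the median on every array at 29.0 to 44.6 and did not pass under IFNg. For AMN107 against DMSO, 2 of the 6 were lower, where 12.4% of all tested probe sets were called lower. The log2 differences were -0.33 for Gsdmd and -0.54 for the membrane-rupture protein Ninj1 (limma adjusted p = 0.0309 and 0.0241). Of 3 other Ninj1 probe sets, 1 passed (-0.49, adjusted p = 0.0223). These genes were named after their values were seen.

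Of 7 other caspases, 5 were tested. Casp6, an executioner caspase named after its value was seen, was higher in IFNg than in DMSO by 0.36 (limma adjusted p = 0.0365), at 168.0 and 166.1 in IFNg against 128.3 and 128.7 in DMSO. It passed in 12 of 24 alternatives, and no other caspase of the list passed for IFNg against DMSO. Of all tested probe sets, 6.65% were called higher there. For AMN107 against DMSO, 1 of the 5 was lower, as were 12.4% of all. It was Casp14, at 57.6 and 48.3 in AMN107 against 91.25 and 94.2 in DMSO. For IFNa against DMSO, Casp9 was lower, as were 3.08% of all, but its other tested probe sets did not pass (-0.13 and 0.13). Casp14 and Casp9 were named after their values were seen. On the brightest tested probe set of each gene, none of the 5 passed by limma for AMN107-IFNg against AMN107 or AMN107-IFNg against IFNg. At an unadjusted p under 0.05 there were 1 and 0 of them. Of all tested probe sets, 7.98% and 29.9% had an unadjusted p under 0.05 in these 2 comparisons. A dimmer Casp9 probe set was lower in AMN107-IFNg than in IFNg (-0.31, limma adjusted p = 0.0415), where 4.41% of all were called lower. Another Casp9 probe set did not pass there (0.09, adjusted p = 0.584). Of 14 caspase adaptors and inhibitors, 10 were tested. Under IFNg 1 of the 10 rose in both settings on its brightest probe set, and no other did in either. Of all tested probe sets, 6.65% were called higher without AMN107 and 1.74% with it. A dimmer Cflar probe set, however, rose for IFNg against DMSO (0.80, limma adjusted p = 0.00171). It did not pass for AMN107-IFNg against AMN107 (0.13, adjusted p = 0.937). The gene counted was Serpinb9, a serpin that inhibits granzyme B and has been reported to inhibit caspases. It read 215.5 and 201.7 in IFNg and 57.0 and 65.3 in DMSO, a log2 difference of 1.64 (limma adjusted p = 5.85e-05). With AMN107 it read 344.5 and 359.3 in AMN107-IFNg and 177.7 and 165.9 in AMN107, a log2 difference of 0.999 (limma adjusted p = 0.00309). It was also higher in IFNa than in DMSO by 1.01 (limma adjusted p = 0.00425) and in AMN107 than in DMSO by 1.37 (adjusted p = 0.00011), comparisons in which no probe set of Casp12 or Casp4 passed. For IFNa against DMSO, 4 of the 10 were higher, where 8.91% of all tested probe sets were, with the IFNa array that stood apart included. For AMN107 against DMSO, 2 of the 10 were higher and 2 lower, where 20.7% and 12.4% of all were.

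Of 10 ER stress genes linked to caspase-12, all were tested. AMN107 alone raised 5 of the 10, where 20.7% of all tested probe sets were called higher, and IFNg alone raised 3, where 6.65% were. These counts take the brightest probe set of each gene. For AMN107 against DMSO, a dimmer probe set of Hspa5, counted as higher, was lower (-0.32, limma adjusted p = 0.0342). The other tested probe sets of Atf4 and Ern1, also counted as higher, did not pass there. Xbp1 was not counted, but a dimmer Xbp1 probe set was higher for AMN107 against DMSO (0.96, adjusted p = 0.00284). This probe set was also higher for IFNg against DMSO (0.81, adjusted p = 0.0181). Ddit3, a transcription factor of the ER stress response, read 366.0 and 341.7 in AMN107 and 167.0 and 148.0 in DMSO, a log2 difference of 1.13 (limma adjusted p = 0.000877). It was higher in AMN107-IFNg than in IFNg by 1.45 (limma adjusted p = 0.000432). Its second probe set gave 1.45 for AMN107 against DMSO (adjusted p = 0.00276) and 0.69 for AMN107-IFNg against IFNg (adjusted p = 0.106). Hsp90b1, an ER chaperone, was higher in AMN107 than in DMSO by 1.27 (limma adjusted p = 0.00153) and in IFNg than in DMSO by 1.03 (adjusted p = 0.0126), but its second probe set gave 0.04 (adjusted p = 0.82) and 0.30 (adjusted p = 0.202). For AMN107-IFNg against AMN107, where Casp12 rose, none of the 10 passed by limma, and none at an unadjusted p under 0.05. Of all tested probe sets, only 1.74% were called higher there and 0.0452% lower, and 7.98% had an unadjusted p under 0.05.

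**Figure D3:**
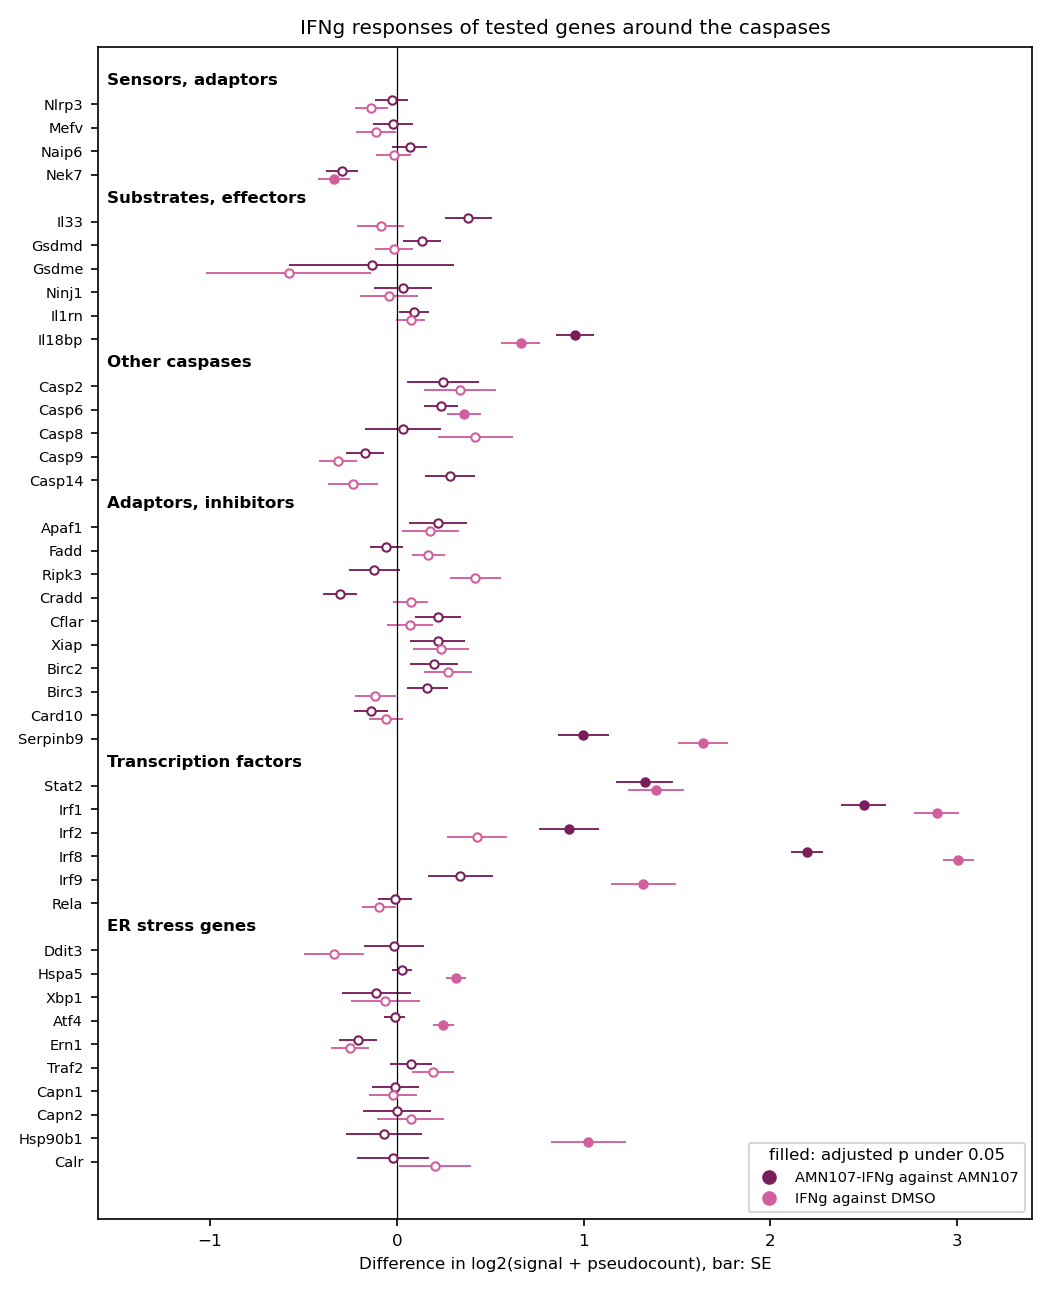
Log2 differences of the tested genes of the 6 lists, on the scale of log2(signal + 8.66), for AMN107-IFNg against AMN107 and for IFNg against DMSO, with bars for the SE and filled points for limma adjusted p under 0.05. The transcription factors stand highest, with medians of 1.12 with and 1.35 without AMN107, and the medians of the other lists lie between -0.12 and 0.34.

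List counts moved with the IFNa arrays. Without both of them, IFNg against DMSO gave 3 higher and 1 lower among the 5 other caspases, 4 higher adaptors and inhibitors, 5 higher transcription factors, and 4 higher and 2 lower ER stress genes, with 17.2% of all probe sets called higher and 11.5% lower. AMN107 against DMSO then gave 7 higher ER stress genes, at 32% higher and 20.2% lower over all, and AMN107-IFNg against AMN107 gave 5 higher transcription factors, at 3.54% and 1.29%. AMN107-IFNg against IFNg gave 3 higher and 2 lower transcription factors, at 22.4% and 12.2%.

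Profiles over the 12 arrays were set against all other tested probe sets with 1 gene. The 2 Casp12 probe sets correlated with each other at a Pearson r of 0.976, and with Casp4 at 0.942 and 0.930, as a description over arrays that share treatments. The genes most like Casp12 1418981_at were Irf1 (r = 0.994), the chemokine Cx3cl1 (0.990), the guanylate-binding protein Gbp6 (0.990), the acyltransferase Gpat3 (0.985) and the immunity-related GTPase Iigp1 (0.983). Of these, Irf1, Gbp6 and Iigp1 had lower mean signals in AMN107-IFNg than in IFNg, such as 1476 against 2691 for Iigp1, and Cx3cl1 and Gpat3 nearly equal ones, 244.3 against 243.7 and 231.0 against 223.9. The genes most like Casp4 were Cd274, the checkpoint ligand PD-L1 (r = 0.986), Mpeg1, which encodes the pore-forming perforin-2 (0.976), the chemokine Cxcl9 (0.972), the lectin Clec2d (0.967) and the chemokine Cxcl11 (0.966). The group mean of each of these 5 was higher in AMN107-IFNg than in IFNg: 206.2 against 126.4 for Cd274, 104.3 against 61.2 for Mpeg1, 575.7 against 253.8 for Cxcl9, 150.6 against 69.9 for Clec2d and 43.8 against 26.8 for Cxcl11. The likeness was chosen on these arrays, so these levels describe the choice and are no test.

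**Figure D4:**
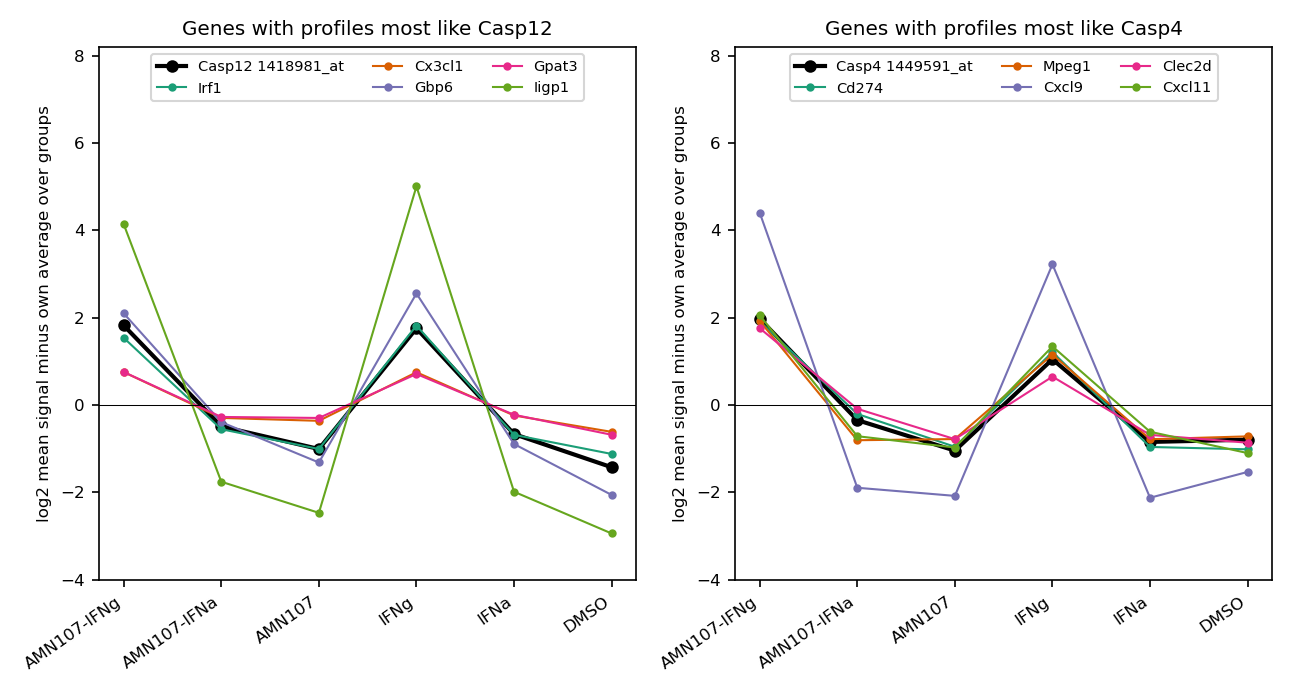
Log2 mean signal of each group minus the probe set's own average over the 6 groups, for Casp12 1418981_at (left) and Casp4 (right) in black and for the 5 genes with the highest Pearson correlation to each in colour. The Casp12 set has AMN107-IFNg at or near the level of IFNg or below it, and the Casp4 set has AMN107-IFNg above IFNg.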

How the data were processed

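RNA of mouse embryonic fibroblasts was measured on 12 1-colour Affymetrix arrays in 6 groups of 2. The deposited values are probe set signals on a linear scale (intensity), made with MAS5 per the submitters' processing notes; its version, settings and scaling rule, and a genome build, are not given in the sources used here. Of 45101 probe sets, 64 controls were left out, the platform annotation gave 34945 a single gene, 932 several genes and 9160 none. Members and gene lists were chosen with earlier results of these data known.

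The test scale was log2(signal + 8.66), with the arrays' mean 25th percentile as pseudocount and no further normalization. Probe sets over the array median on 2 or more arrays were tested (24363). limma 3.58.1 (R 4.3.3) estimated a mean for each group from all 12 arrays together (eBayes with a trend), with two-sided tests and Benjamini-Hochberg adjustment over 24363 probe sets. Precision is limited by the number of arrays. The code was tested on simulated data.

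Replicate numbers do not pair arrays by the labels: over 15 pairs of groups, the correlation of same-numbered arrays' deviations ran from -0.14 to 0.32. Every probe set of the 3 caspases was named. The 5 genes with the highest Pearson correlation to Casp12 and to Casp4 were named, as were list genes past the test with a log2 difference of at least 1, at most 4 a list and comparison; the probe set with the highest mean stood for a list gene. Other named genes are marked as chosen after their values were seen, or are given for their level, an exception in the test or a second probe set. Alternatives were the pseudocount, the filter, quantile normalization, median centring, array weights, no trend, a replicate block, only the groups compared, 1 probe set a gene and leaving out arrays. Sequences came from RefSeq (GRCm38.p6), in which Casp1, Casp4 and Casp12 all matched.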

Additional observations from a re-analysis of the deposited data

Results flagged for a closer look

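The response of Casp4 to IFNg differed between cells with and without AMN107. The interaction was 1.03 on the log2 scale (SE 0.17, limma adjusted p = 0.0207), with IFNg responses of 2.52 with AMN107 and 1.49 without it. Both AMN107-IFNg arrays lay above both IFNg arrays, and the call was lost on leaving out any 1 of 7 of the 8 arrays, all but IFNg replicate 2.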

How the results depend on the processing

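For the 33 differences and interactions of the 3 tested probe sets, up to 24 alternatives gave 758 values, of which 721 kept the direction and the side of the threshold, 10 lost the threshold, 12 gained it and 15 turned sign. The calls for IFNg against DMSO and for AMN107-IFNg against AMN107 passed under every alternative run, as did Casp4 for AMN107-IFNg against IFNg (0.72 to 1.005, highest limma adjusted p = 0.0215). The Casp4 interaction with IFNg passed in 16 of 24.

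Counts of the 3 probe sets past the test changed as follows. AMN107-IFNa against AMN107 gave 2 with array weights, against 0 reported. IFNa against DMSO gave 1 with a pseudocount of 1, 1 with quantile normalization, 1 with median centring and 1 with 1 probe set a gene, against 0, and 0 to 2 leaving out arrays. AMN107 against DMSO gave 1 with array weights, against 0. AMN107-IFNa against IFNa gave 1 with a pseudocount of 1, against 0, and 0 to 1 leaving out arrays. IFNg against IFNa gave 1 with only the groups compared, against 3. The interaction with IFNg gave 0 with quantile normalization, against 1, and 0 to 1 leaving out arrays; that with IFNa gave 0 to 1, against 0.

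The values that turned sign passed the test in neither form. Casp4 for IFNa against DMSO was 0.046 with quantile normalization and 0.044 with median centring, and -0.072 to 0.0011 leaving out arrays. Casp12 1449297_at for AMN107 against DMSO was 0.036 with quantile normalization and 0.023 with median centring, and -0.21 to 0.14 leaving out arrays. Casp12 1418981_at for AMN107-IFNg against IFNg was -0.039 with quantile normalization. Leaving out arrays, AMN107-IFNa against IFNa ran from -0.050 to 0.34 for Casp12 1418981_at and from -0.10 to 0.30 for 1449297_at. The interaction with IFNg ran from -0.31 to 0.034 for 1449297_at. That with IFNa ran from -0.36 to 0.074 for 1418981_at and from -0.071 to 0.34 for 1449297_at. The cause was not tested.

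With the replicate block, the counts of the 3 probe sets were 3, 3, 3 and 3 for the IFNg comparisons and 1 for AMN107-IFNg against IFNg and for the interaction with IFNg, and it changed no call. Calls over all probe sets moved more: IFNg against DMSO gave 2189, and 630 to 7010 over the alternatives; AMN107-IFNg against IFNg 3741, and 1195 to 8415; the interaction with IFNg 335, and 29 to 3185; AMN107 against DMSO 8056, and 3483 to 13195; IFNa against DMSO 2922, and 37 to 13220; AMN107-IFNg against AMN107 434, and 203 to 1600.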
